A study of Homo sapiens with 12 samples.

Results

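The genes described here are 10 of the 58174 in the deposited table, chosen by symbol as the ATF4 axis and the serine synthesis pathway. They are the transcription factor genes ATF4, ATF3 and DDIT3, the pseudokinase gene TRIB3, the asparagine synthetase gene ASNS, the serine synthesis genes PHGDH, PSAT1 and PSPH, and the mitochondrial folate genes SHMT2 and MTHFD2. The RNA came from H520, an established human cell line of lung squamous cell carcinoma, with 12 libraries split evenly over 4 groups. Cells were given BLU9931 at 1 µM, palbociclib at 1 µM or both drugs together (the combination), each for 72 h, or served as control. BLU9931 inhibits the receptor kinase FGFR4, and palbociclib inhibits CDK4 and CDK6, which drive entry into S phase. What the control cells were given, and whether replicate libraries are separate cultures, is not in the labels, so p-values measure the spread between these libraries, which may be technical, and all results are from a single cell line.

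ATF4 is the main transcription factor of the integrated stress response. When amino acids run short or unfolded protein collects in the endoplasmic reticulum, phosphorylation of the translation factor eIF2 slows general translation but favours that of ATF4 mRNA, so the mRNA level does not measure the protein. ATF4 turns on genes of amino acid uptake and synthesis. PHGDH, PSAT1 and PSPH catalyse the successive steps from the glycolytic intermediate 3-phosphoglycerate to serine, and SHMT2 and MTHFD2 pass a carbon of serine to folate in mitochondria, from where it reaches purines and thymidylate. ATF3 and DDIT3 (also called CHOP) are stress-induced factors downstream of ATF4, and TRIB3 is an ATF4 target whose product inhibits ATF4.

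Promoter windows (250 bases before to 50 after a start site, RefSeq, GRCh38.p14) were found for 8 of the 10 genes. They were read for the core of the C/EBP-ATF composite element, which ATF4 binds with a C/EBP partner, written TGATGNAA, and for the CCAAT box, which was added after the sequences had been seen, both on either strand. The windows of ASNS and ATF3 are shown because they hold the composite core, in capitals, and those of PHGDH and PSAT1 because these serine synthesis genes are set against each other in the results, with CCAAT in capitals.
ASNS, chr7:97872359-97872658, - strand: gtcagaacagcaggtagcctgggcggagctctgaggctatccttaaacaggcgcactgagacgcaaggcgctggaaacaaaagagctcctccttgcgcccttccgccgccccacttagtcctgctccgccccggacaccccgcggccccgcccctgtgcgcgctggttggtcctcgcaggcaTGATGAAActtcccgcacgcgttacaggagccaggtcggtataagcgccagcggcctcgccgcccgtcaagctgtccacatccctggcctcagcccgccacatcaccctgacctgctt
ATF3, chr1:212565157-212565456, + strand: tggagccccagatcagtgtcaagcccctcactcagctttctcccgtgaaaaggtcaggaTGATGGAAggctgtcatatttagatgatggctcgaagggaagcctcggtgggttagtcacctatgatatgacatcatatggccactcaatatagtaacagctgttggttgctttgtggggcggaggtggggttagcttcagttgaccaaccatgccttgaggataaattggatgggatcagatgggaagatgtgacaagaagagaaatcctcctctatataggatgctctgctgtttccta
PHGDH, chr1:119711684-119711983, + strand: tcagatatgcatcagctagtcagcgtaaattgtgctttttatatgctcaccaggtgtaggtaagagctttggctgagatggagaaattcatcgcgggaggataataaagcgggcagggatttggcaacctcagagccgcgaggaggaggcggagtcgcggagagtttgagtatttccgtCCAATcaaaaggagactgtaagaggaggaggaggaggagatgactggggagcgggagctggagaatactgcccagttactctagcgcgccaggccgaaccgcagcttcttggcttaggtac
PSAT1, chr9:78296875-78297174, + strand: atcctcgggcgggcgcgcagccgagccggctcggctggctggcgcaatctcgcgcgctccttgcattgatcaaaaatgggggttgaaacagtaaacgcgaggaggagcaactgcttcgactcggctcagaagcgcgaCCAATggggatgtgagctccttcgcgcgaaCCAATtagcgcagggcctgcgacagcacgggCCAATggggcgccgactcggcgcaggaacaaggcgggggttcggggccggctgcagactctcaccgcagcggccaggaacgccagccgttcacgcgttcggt
The composite core lay 68 bases before the start site in ASNS (TGATGAAA) and 191 bases before it in ATF3 (TGATGGAA), and 3.62% of 35116 human windows of this length held a match. CCAAT stood once in PHGDH, 71 bases before the start, and 3 times in PSAT1, 113, 83 and 52 bases before it, and 34.6% of windows held it. It also stood 2 times each in the windows of DDIT3 and MTHFD2, not shown, and ATF3 has 1 on the other strand, left in lower case. A search for the E-box CACGTG on either strand, also added after the sequences had been seen, found 1 site, in ATF4, 82 or 85 bases before the start by the window used, and 7.26% of windows held one. ASNS and ATF3 each have another window, at another start site, with no composite core, and none of the printed matches overlap. These matches are letters only and say nothing of binding in H520 cells.

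The libraries held 21.7 M to 35.8 M counts (M, mega), and all 10 genes were among the 20612 that passed the filter on low counts. Levels are given as CPM, counts relative to the TMM-scaled library total, and changes as log2 fold changes with the standard error (SE) of edgeR's quasi-likelihood fit. A gene is said to rise or fall where its Benjamini-Hochberg adjusted p over all tested genes was under 0.05. Control 1 and palbociclib 3 stood apart from the other libraries: their deviations from their group followed gene GC content (Spearman's rho across genes -0.667 and -0.735, against -0.245 to 0.600 elsewhere). Among the 10 genes, MTHFD2, PSAT1 and ASNS were higher in both libraries than in their group mates, and ATF3, PHGDH, ATF4, SHMT2 and TRIB3 were lower in both. Results that rest on these libraries are given with and without them, or with GC offsets, a per-library correction for gene GC content. Of 8 squamous markers, 1 (SOX2) averaged at least 1 CPM, at 476 to 592 CPM, while TP63, a defining factor of squamous cells, did not exceed 0.223 CPM and KRT5 did not exceed 0.805 CPM. Of 5 lung glandular markers, 1 (NKX2-1, at 3.42 to 14.1 CPM) averaged at least 1 CPM. The summed glandular level was 11.5 to 13.1 CPM in BLU9931 and 8.93 to 14.2 CPM in palbociclib libraries. It was 7.50 to 10.5 CPM in combination and 3.65 to 10.9 CPM in control libraries. All 4 epithelial markers were present, as were 4 of 5 neuroendocrine markers, among them INSM1 at 21.7 to 42.4 CPM. The summed neuroendocrine level was 84.3 to 109 CPM in BLU9931, 47.0 to 51.6 CPM in palbociclib, 55.6 to 71.8 CPM in the combination and 69.2 to 81.7 CPM in control libraries, and its part in the results below was not tested. Of 6 fibroblast markers, 1 (COL1A1, at 3.27 to 11.6 CPM) averaged at least 1 CPM, and the summed fibroblast level was 10.3 to 12.2 CPM in BLU9931, 3.96 to 6.71 CPM in palbociclib, 3.49 to 5.14 CPM in combination and 4.73 to 7.70 CPM in control libraries. The fibroblast markers COL3A1, DCN and LUM had 4, 7 and 18 counts over the 12 libraries. Of 6 leukocyte markers, 1 (LYZ, at 0.227 to 2.81 CPM) averaged at least 1 CPM, with a sum of 1.15 to 2.25 CPM in BLU9931, 2.68 to 2.99 CPM in palbociclib, 3.66 to 4.12 CPM in combination and 1.23 to 2.18 CPM in control libraries, and PTPRC had 2 counts in all. The part of these sums in the results was not tested.

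**Figure D1:**
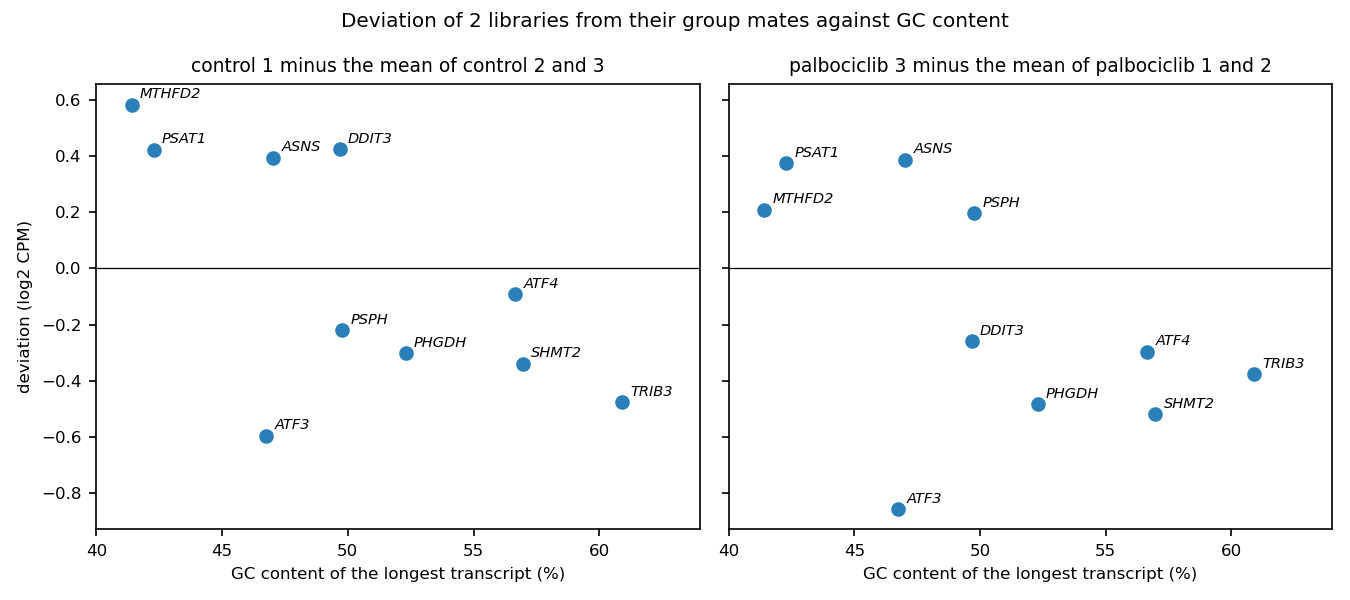
Deviation of control 1 (left) and palbociclib 3 (right) from the mean of the other libraries of their group, in log2 CPM, against the GC content of the longest transcript of each of the 10 genes. MTHFD2, PSAT1 and ASNS lie above 0 and PHGDH, ATF4, SHMT2 and TRIB3 below 0 in both panels, while ATF3, at 46.7% GC, lies at -0.60 in control 1 and -0.86 in palbociclib 3.

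In the 2 comparisons of palbociclib-treated cells with control, ATF4, ASNS, PHGDH, PSAT1, SHMT2 and MTHFD2 were lower, and no gene of the 10 rose. The 10 genes were chosen with earlier results of these data known, so their counts beside the shares of all tested genes are descriptions. Under palbociclib alone 6 of 10 fell, where 10.5% of all tested genes fell. In 8 of 10 every palbociclib library lay below every control library, as in 16.2% of all tested genes. In the combination 6 of 10 fell against control, where 16.3% of all tested genes fell, and 7 of 10 had every combination library below every control library, as in 23.5% of all tested genes. Against BLU9931 the combination was lower in 6 of 10 (ATF4, ATF3, ASNS, PHGDH, PSAT1 and SHMT2), where 13.7% of all tested genes were, and 7 of 10 had no overlap, as in 25.3% of all tested genes. The median log2 change of the 10 genes was -0.62 under palbociclib and -0.60 in the combination, against 0.01 and 0.03 over all tested genes. Comparisons that share control or combination libraries are not independent, and the first 2 share the control libraries, so their values stand side by side. DDIT3, TRIB3 and PSPH did not pass the threshold in any comparison in the edgeR fit of 12 libraries without GC offsets. Per length, as TPM in control cells, the most abundant were ATF4 at 338 ± 52.4 TPM (SD, n = 3) and PHGDH at 273 ± 40.4 TPM, and the least abundant were ATF3 at 8.95 ± 0.445 TPM and TRIB3 at 7.78 ± 1.58 TPM.

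**Figure D2:**
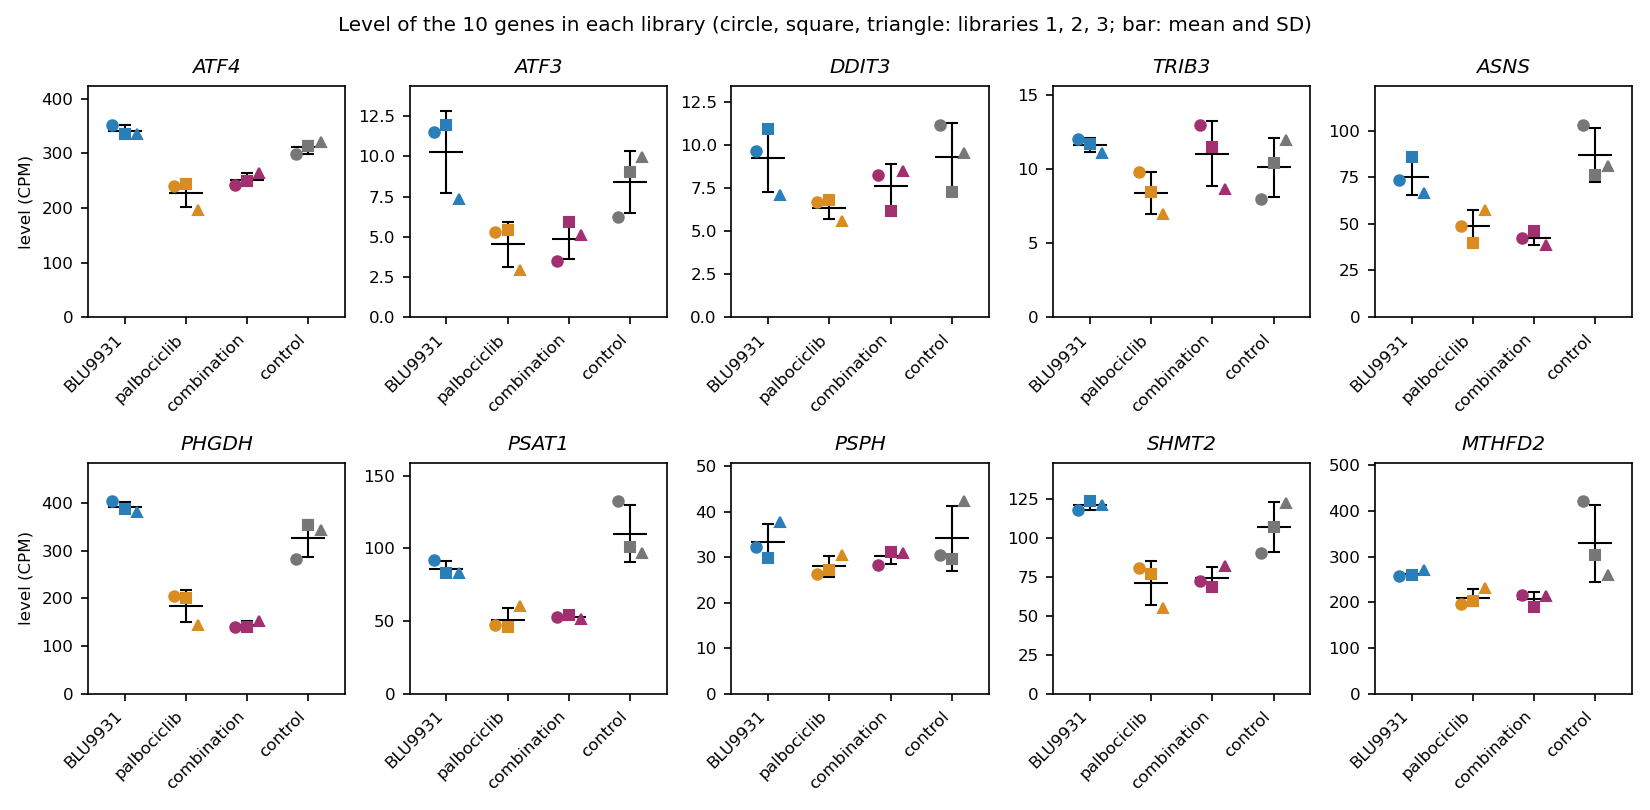
Level in CPM of the 10 genes in each library, by group (BLU9931, palbociclib, combination, control), with bars for mean and SD of 3 libraries. The palbociclib and combination libraries of PHGDH (139 to 205 CPM) and PSAT1 (45.6 to 60.2 CPM) all lie below the BLU9931 and control libraries, whereas those of TRIB3 and PSPH are mixed with the control libraries.

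ATF4 (ENSG00000128272, GRCh38 chromosome 22, 39519695 to 39522685, + strand) gave 353, 335 and 335 CPM in BLU9931, 240.3, 244 and 197 CPM in palbociclib, 242, 249 and 265 CPM in combination and 298, 314 and 321 CPM in control libraries. Every palbociclib and combination library lay below every control library, and every BLU9931 library lay above them. ATF4 fell by 0.45 ± 0.09 (log2, SE, adjusted p = 0.00557) under palbociclib and fell by 0.31 ± 0.09 (adjusted p = 0.0271) in the combination, each against control. It also fell by 0.44 ± 0.09 in the combination against BLU9931 (adjusted p = 0.0049), a call lost with limma on log2(TPM + 1) (0.0693). The call in the combination against control was lost with limma (adjusted p = 0.175) and without control 2 (0.0764), control 3 (0.0882), combination 1 (0.106) or combination 2 (0.089). It stood with edgeR without control 1 and palbociclib 3 together (-0.35 ± 0.06, adjusted p = 0.000575) and with GC offsets (-0.48 ± 0.08, adjusted p = 0.00041).

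ATF3 (ENSG00000162772, chromosome 1, 212565334 to 212620777, + strand), a factor that can repress or activate stress genes, was much less abundant. It gave 11.5, 11.98 and 7.34 CPM in BLU9931, 5.26, 5.39 and 2.91 CPM in palbociclib, 3.49, 5.94 and 5.14 CPM in combination and 6.25, 9.03 and 9.97 CPM in control libraries. No palbociclib or combination library reached the lowest control library, which was control 1. The log2 change against control was -0.90 ± 0.30 (adjusted p = 0.0527) under palbociclib and -0.79 ± 0.30 (adjusted p = 0.0612) in the combination, so neither passed with edgeR on the 12 libraries. On the same libraries both passed with DESeq2 (adjusted p = 0.0186 and 0.029) and with limma on log2(TPM + 1) (0.0109 and 0.0207), and with GC offsets palbociclib passed (0.0363) and the combination did not (0.0603). Without control 1 and palbociclib 3 both passed with edgeR, at -0.85 ± 0.27 (adjusted p = 0.0357) and -0.98 ± 0.24 (adjusted p = 0.00802). ATF3 fell by 1.08 ± 0.30 in the combination against BLU9931 (adjusted p = 0.0187), a call lost without BLU9931 1 (0.0587), BLU9931 2 (0.0699) or combination 1 (0.0776).

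DDIT3 (ENSG00000175197, chromosome 12, 57516588 to 57520517, - strand), a factor tied to cell death under lasting stress, ranged over 7.11 to 10.9 CPM in BLU9931, 5.62 to 6.81 CPM in palbociclib, 6.19 to 8.48 CPM in combination and 7.27 to 11.2 CPM in control libraries. Its palbociclib libraries lay just below the lowest control library, with a log2 change of -0.55 ± 0.21 and an adjusted p of 0.0892 (0.314 without control 1 and palbociclib 3, 0.0316 with GC offsets). The 3' end of DDIT3 overlaps MARS on the opposite strand, which had 1907 to 4198 counts per library, and the use of strand is not given in the sources used here. TRIB3 (ENSG00000101255, chromosome 20, 362835 to 397559, + strand) ranged over 11.1 to 12.1 CPM in BLU9931, 6.99 to 9.83 CPM in palbociclib, 8.64 to 13.0 CPM in combination and 8.004 to 11.95 CPM in control libraries. Its palbociclib and combination libraries overlapped the control range, and its log2 changes against control were -0.27 ± 0.20 (adjusted p = 0.382) under palbociclib and 0.12 ± 0.20 (adjusted p = 0.674) in the combination.

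ASNS (ENSG00000070669, chromosome 7, 97852118 to 97872542, - strand), which makes asparagine from aspartate and glutamine and whose promoter window with the composite core is printed above, gave 73.6, 85.9 and 66.4 CPM in BLU9931, 48.7, 39.8 and 57.6 CPM in palbociclib, 42.6, 46.0 and 38.6 CPM in combination and 103, 76.3 and 80.9 CPM in control libraries. All palbociclib and combination libraries lay below all BLU9931 and control libraries. ASNS fell by 0.83 ± 0.17 under palbociclib (adjusted p = 0.00472), to 0.561 times control, and fell by 1.03 ± 0.17 in the combination (adjusted p = 0.000692), to 0.489 times control. In the combination against BLU9931 the log2 change was -0.83 ± 0.17 (adjusted p = 0.00337). The 3 calls stood in each of the 12 fits that left out 1 library.

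PHGDH (ENSG00000092621, chromosome 1, 119659798 to 119744215, + strand), the first enzyme of serine synthesis, had the largest fall of the 10 genes in the combination. It gave 404, 388 and 382 CPM in BLU9931, 205, 199.7 and 145 CPM in palbociclib, 139.9, 139 and 153 CPM in combination and 282, 353 and 342 CPM in control libraries. The BLU9931 libraries lay above all control libraries, and the palbociclib and combination libraries below them. PHGDH fell by 0.83 ± 0.13 under palbociclib (adjusted p = 0.00128) and fell by 1.18 ± 0.13 in the combination (adjusted p = 5.76e-05), to 0.562 and 0.442 times control. Against BLU9931, the combination was at 0.368 times the level, a log2 change of -1.44 ± 0.13 (adjusted p = 1.52e-05).

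PSAT1 (ENSG00000135069, chromosome 9, 78297143 to 78330093, + strand), the aminotransferase of the next step, had the largest fall of the 10 genes under palbociclib alone. It gave 91.9, 83.3 and 83.2 CPM in BLU9931, 47.3, 45.6 and 60.2 CPM in palbociclib, 52.9, 54.3 and 51.5 CPM in combination and 133, 101 and 97.0 CPM in control libraries. The BLU9931 libraries lay below all control libraries, and the palbociclib and combination libraries lay lower still. PSAT1 fell by 1.11 ± 0.14 under palbociclib (adjusted p = 0.000339) and fell by 1.06 ± 0.14 in the combination (adjusted p = 0.000214), to 0.463 and 0.480 times control. The combination was also lower than BLU9931, with a log2 change of -0.70 ± 0.14 (adjusted p = 0.00368). For PHGDH and PSAT1, these calls stood in each fit that left out 1 library.

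PSPH (ENSG00000146733, chromosome 7, 56011051 to 56051604, - strand), the phosphatase of the last step, ranged over 29.8 to 37.7 CPM in BLU9931, 26.2 to 30.6 CPM in palbociclib, 28.3 to 31.1 CPM in combination and 29.6 to 42.3 CPM in control libraries. These ranges overlapped, and the log2 change was -0.29 ± 0.15 under palbociclib (adjusted p = 0.219) and -0.18 ± 0.15 in the combination (adjusted p = 0.410). Under palbociclib the edgeR adjusted p was 0.059 without control 1 and palbociclib 3 and 0.0777 with GC offsets. With GC offsets and a replicate block together, PSPH passed under palbociclib (-0.32, adjusted p = 0.0277). The pseudogene PSPHP1 had 8.03% to 17.3% as many counts as PSPH, so how reads were split between them is uncertain.

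SHMT2 (ENSG00000182199, chromosome 12, 57229327 to 57234935, + strand), which splits serine into glycine and a folate-bound carbon, gave 118, 124 and 121 CPM in BLU9931, 80.9, 76.8 and 55.0 CPM in palbociclib, 72.3, 68.1 and 82.0 CPM in combination and 90.5, 107 and 123 CPM in control libraries. All palbociclib and combination libraries lay below all control libraries, and control 1 was nearest to them. SHMT2 fell by 0.59 ± 0.16 under palbociclib (adjusted p = 0.0201) and fell by 0.53 ± 0.16 in the combination (adjusted p = 0.0232), and fell by 0.70 ± 0.16 in the combination against BLU9931 (adjusted p = 0.00599). The palbociclib call was lost without control 2 (0.0581) or control 3 (0.0851), and the combination call against control without control 2 (0.062), control 3 (0.0982), combination 1 (0.0798) or combination 2 (0.0943), or with limma (0.111). Both calls stood with edgeR without control 1 and palbociclib 3 together (adjusted p = 0.00186 and 0.000208). They also stood with GC offsets (adjusted p = 3.81e-06 and 2.54e-06).

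MTHFD2 (ENSG00000065911, chromosome 2, 74198562 to 74217565, + strand), which oxidises that carbon unit, gave 259, 259 and 271 CPM in BLU9931, 197, 202 and 231 CPM in palbociclib, 217, 189 and 214 CPM in combination and 422, 304 and 261 CPM in control libraries. Control 1 was the highest library, and all palbociclib and combination libraries lay below all control libraries. MTHFD2 fell by 0.65 ± 0.15 under palbociclib (adjusted p = 0.0111) and fell by 0.67 ± 0.15 in the combination (adjusted p = 0.0056). Without control 1 and palbociclib 3 the log2 changes were -0.52 ± 0.09 (adjusted p = 0.00161) and -0.47 ± 0.08 (adjusted p = 0.000942). With TPM in place of counts and limma, the palbociclib fall did not pass (adjusted p = 0.0836). The log2 change in the combination against BLU9931 was -0.35 ± 0.15, which did not pass (adjusted p = 0.113) and passed without control 1 and palbociclib 3 (-0.37 ± 0.07, adjusted p = 0.00222).

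**Figure D3:**
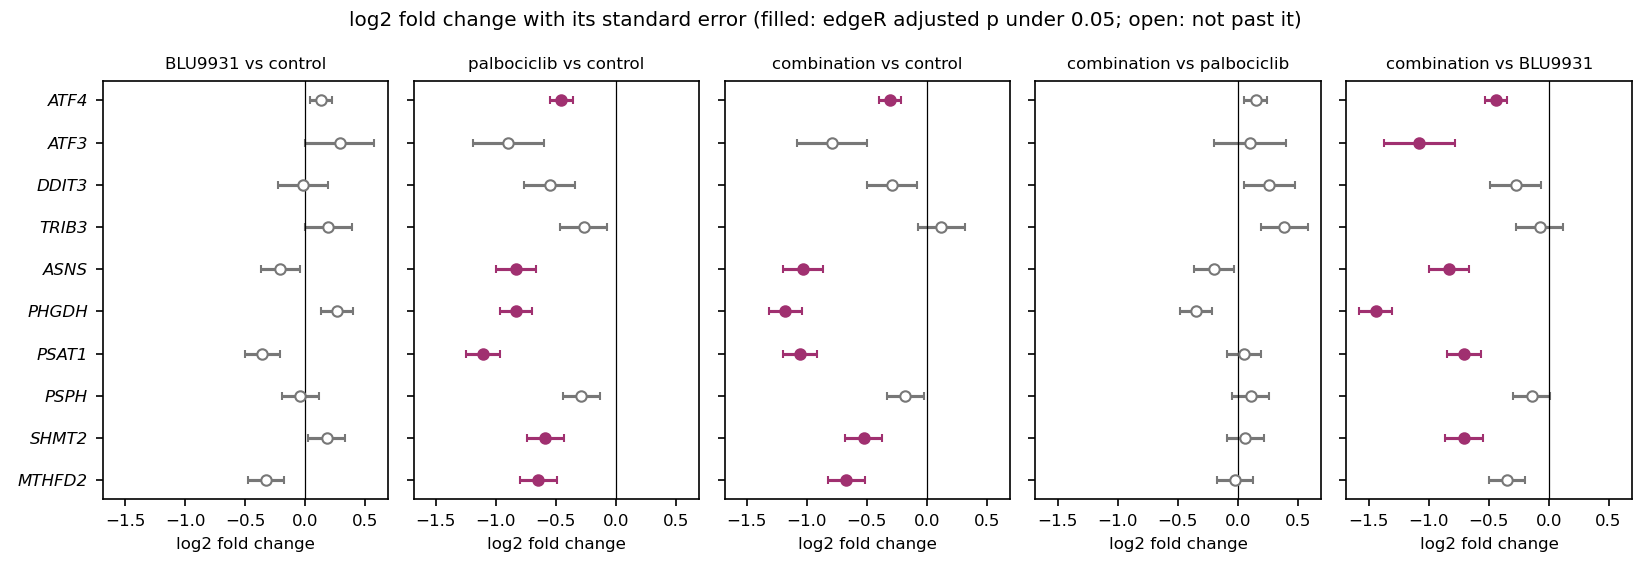
log2 fold change and SE of the 10 genes in 5 comparisons, filled where edgeR's adjusted p was under 0.05. The palbociclib and combination panels against control each have 6 filled points, all below 0, the combination against BLU9931 has 6, also below 0, and the BLU9931 panel and the combination against palbociclib have none.

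BLU9931 alone was compared with control to ask how the 10 genes differed under that drug by itself. With edgeR, 0 of 10 genes passed, where 0.18% of all tested genes did, and 0 passed with DESeq2 or limma. PSAT1, at -0.35 ± 0.14 (unadjusted p = 0.0292, adjusted p = 0.274), was the 1 gene of the 10 with an unadjusted p under 0.05. Of all tested genes, 3347 of 20612 had an unadjusted p under 0.05. The libraries of the groups did not overlap for 3 genes, ATF4 and PHGDH with BLU9931 above control and PSAT1 with BLU9931 below it, where 31.6% of all tested genes had no overlap. PHGDH differed by 0.26 ± 0.13 (adjusted p = 0.342). Without control 1 and palbociclib 3, the log2 changes were 0.17 ± 0.06 for PHGDH (adjusted p = 0.147) and -0.20 ± 0.07 for PSAT1 (adjusted p = 0.151).

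What BLU9931 adds to palbociclib is the question of the next comparison, the combination against palbociclib alone. With edgeR, 0 of 10 genes passed, where 3.82% of all tested genes did. DESeq2 and limma also called 0 of the 10. An unadjusted p under 0.05 was found for 1 gene of the 10, and for 3200 of all 20612 tested genes. The 1 gene of the 10 was PHGDH, at -0.35 ± 0.13 (unadjusted p = 0.0233, adjusted p = 0.220). Palbociclib 3, at 145 CPM, lay within the combination range, and the other palbociclib libraries lay above it. Without palbociclib 3 the log2 change of PHGDH was -0.49 (adjusted p = 0.0182), without control 1 and palbociclib 3 it was -0.49 ± 0.06 (adjusted p = 0.000541), and with GC offsets it was -0.34 ± 0.08 (adjusted p = 0.0153). The other 9 genes did not pass in these fits. Of all tested genes, 823 of 21242 passed without palbociclib 3, 2043 of 21092 without both libraries and 2516 of 20612 with GC offsets.

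Whether both drugs together did more or less than their separate log2 effects add up to was tested as an interaction. With edgeR, 0 of 10 genes passed, where 1.59% of all tested genes did, and DESeq2 and limma called 0 of the 10. An unadjusted p under 0.05 was found for 1 of the 10, and for 2937 of all 20612 tested genes. The interaction of PHGDH was -0.61 ± 0.19 (unadjusted p = 0.00717, adjusted p = 0.157) and that of PSAT1 was 0.41 ± 0.20 (adjusted p = 0.395). Without control 1 and palbociclib 3 both passed, at -0.66 ± 0.08 (adjusted p = 0.00132) for PHGDH and 0.38 ± 0.10 (adjusted p = 0.0351) for PSAT1. With GC offsets they were -0.52 ± 0.11 (adjusted p = 0.0142) and 0.36 ± 0.10 (adjusted p = 0.0452). In these fits the combination had less PHGDH, and more PSAT1, than the added log2 effects of both drugs give. Of all tested genes, 2117 of 21092 passed the interaction without those libraries and 1959 of 20612 with GC offsets. PSAT1 did not pass with GC offsets and a replicate block together. Nor did it pass in edgeR fits that left out 1 library (lowest adjusted p 0.096).

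The ratio of PHGDH to PSAT1 in TPM shows the same libraries per length, as a description with no test. It was 4.15, 3.84 and 3.90 in BLU9931, 3.16, 3.37 and 2.08 in palbociclib, 2.39, 2.36 and 2.51 in combination and 2.04, 2.74 and 2.92 in control libraries. The BLU9931 libraries were highest, and control 1 and palbociclib 3 lowest.

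**Figure D4:**
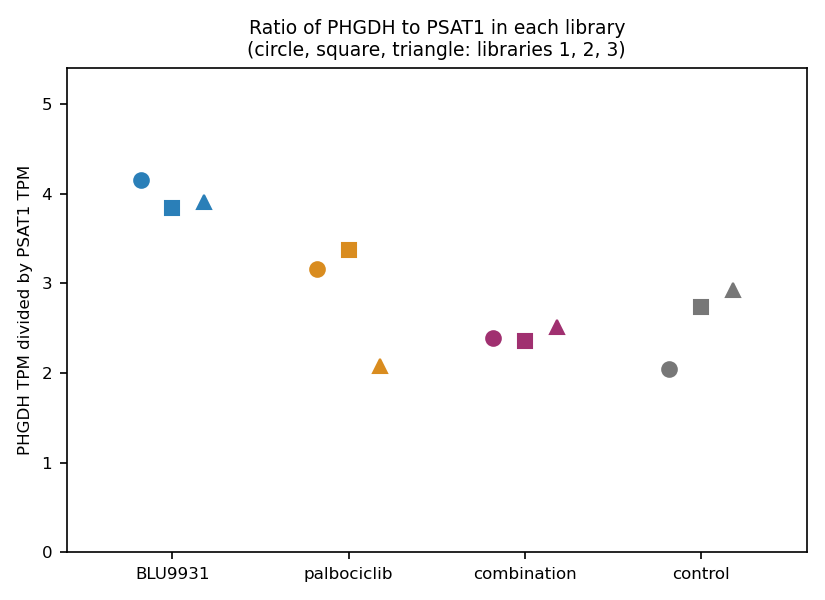
PHGDH TPM divided by PSAT1 TPM in each library, by group, with a point per library. The BLU9931 points lie between 3.84 and 4.15 and the combination points between 2.36 and 2.51, while control 1 (2.04) and palbociclib 3 (2.08) lie below the other libraries of their groups.

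Of 37 other known ATF4 targets, 18 (48.6%) fell and 2 (5.41%) rose under palbociclib alone, with a median log2 change of -0.45. In the combination against control, 17 (45.9%) fell and 6 (16.2%) rose, with a median of -0.31. This list and those below were chosen with earlier results of these data known, so their counts are descriptions. STC2, which encodes a secreted glycoprotein, was at 76.1 ± 6.73 CPM in palbociclib, 82.0 ± 4.19 CPM in combination and 194 ± 8.91 CPM in control libraries (SD, n = 3), a log2 change of -1.35 ± 0.10 (adjusted p = 8.2e-06) under palbociclib. SLC1A4, a neutral amino acid transporter gene, fell by 1.51 ± 0.24 under palbociclib (adjusted p = 0.00128) and fell by 1.96 ± 0.25 in the combination (adjusted p = 0.000114). CEBPG, whose product is a C/EBP partner of ATF4, fell by 0.97 ± 0.15 under palbociclib (adjusted p = 0.00112).

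Some targets rose. PPP1R15A, which directs a phosphatase to eIF2 and so ends the response, was at 12.8 ± 1.24 CPM in combination and 6.38 ± 1.11 CPM in control libraries, a rise of 1.00 ± 0.17 (adjusted p = 0.000963). CHAC1, a glutathione-degrading enzyme gene, was the 1 target that passed under BLU9931 alone in the edgeR fit of 12 libraries, at 13.3 ± 2.08 CPM in BLU9931 and 2.79 ± 0.599 CPM in control libraries (log2 change 2.25 ± 0.33, adjusted p = 0.0256, but up to 0.145 when 1 library was left out). Under BLU9931, 2 targets rose and 2 fell with GC offsets, and 1 rose and 3 fell without control 1 and palbociclib 3. Of all tested genes, 309 of 20612 rose and 461 fell with GC offsets. Without those 2 libraries, 293 of 21092 rose and 260 fell. GDF15, a secreted stress factor, was the 1 target that passed between the combination and palbociclib in the edgeR fit of 12 libraries. It was at 6.07 ± 0.901 CPM in combination and 1.48 ± 1.04 CPM in palbociclib libraries (2.02 ± 0.49, adjusted p = 0.0438, but up to 0.143 when 1 library was left out). Between these groups 7 targets were higher in the combination with GC offsets, 6 without control 1 and palbociclib 3, 3 with DESeq2 and 0 with a replicate block, and none was lower in these fits. Of all tested genes, 1277 of 20612 were higher with GC offsets and 817 of 21092 without those libraries. With DESeq2 378 of 20612 were higher, and with the block 91.

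Of 22 upstream regulators of ATF4, such as the eIF2 kinases and the subunits of eIF2B, the exchange factor that eIF2 phosphorylation inhibits, 5 fell and 1 rose under palbociclib, and 6 fell and 1 rose in the combination against control. Under palbociclib the count that fell was 13 with GC offsets, 9 without control 1 and palbociclib 3 and 3 with a replicate block. In the combination it was 9, 8 and 5 in these fits. EIF2B1, an eIF2B subunit gene, fell by 0.53 ± 0.09 under palbociclib (adjusted p = 0.00122). BTRC, part of a ubiquitin ligase that recognises ATF4, rose by 0.71 ± 0.20 under palbociclib (adjusted p = 0.0262). That call was lost without control 1 and palbociclib 3 (0.0978), and its adjusted p was up to 0.0992 when 1 library was left out. In the combination BTRC rose by 1.02 ± 0.20 (adjusted p = 0.00242). PPP1R15B, which supplies the constitutive eIF2 phosphatase, fell by 0.68 ± 0.12 in the combination (adjusted p = 0.00112).

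Of 27 other folate and glycine genes, 10 fell and 4 rose under palbociclib, and 8 fell and 4 rose in the combination against control. TYMS, which makes thymidylate with a folate carbon and is an E2F target, had the largest log2 change of those named, at 29.9 ± 2.47 CPM in palbociclib, 7.10 ± 0.929 CPM in combination and 74.6 ± 2.09 CPM in control libraries. Its log2 change was -1.32 ± 0.12 under palbociclib (adjusted p = 3.04e-05) and -3.39 ± 0.13 in the combination (adjusted p = 3.11e-08). TYMS was also the 1 gene of this list past the threshold in the interaction, at -1.99 ± 0.17 (adjusted p = 0.000123), where 2 more genes passed with GC offsets and 1 more without control 1 and palbociclib 3. Of all tested genes, 1.59% passed the interaction, 1959 of 20612 with GC offsets and 2117 of 21092 without those libraries. MTHFD1, the cytosolic folate enzyme gene, fell by 0.81 ± 0.09 under palbociclib (adjusted p = 9.56e-05), and MTHFD1L, which releases formate from mitochondria, fell by 1.01 ± 0.11 (adjusted p = 0.000114).

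Of 22 targets of the IRE1 and ATF6 branches of the unfolded protein response, which act beside the eIF2 kinase PERK, 4 fell and 0 rose under palbociclib, and 7 fell and 1 rose in the combination against control. Under palbociclib 8 fell both with GC offsets and without control 1 and palbociclib 3, and in the combination 9 fell in both fits, with 4 rises with GC offsets and 2 without those libraries. HSPA5, which encodes the chaperone BiP, fell by 0.40 ± 0.09 under palbociclib (adjusted p = 0.00958). PDIA6, a disulphide isomerase gene, fell by 0.65 ± 0.08 in the combination (adjusted p = 0.000146). In the edgeR fit of 12 libraries, the list counts stand beside 10.5% of all tested genes that fell under palbociclib and 10% that rose. In that fit 16.3% fell and 15.4% rose in the combination. With GC offsets, 4223 of 20612 genes fell under palbociclib, and 4607 fell and 4341 rose in the combination. Without control 1 and palbociclib 3, 3269 of 21092 fell under palbociclib, and 4275 fell and 3914 rose in the combination. With a replicate block, 1652 of 20612 fell under palbociclib and 2930 in the combination.

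**Figure D5:**
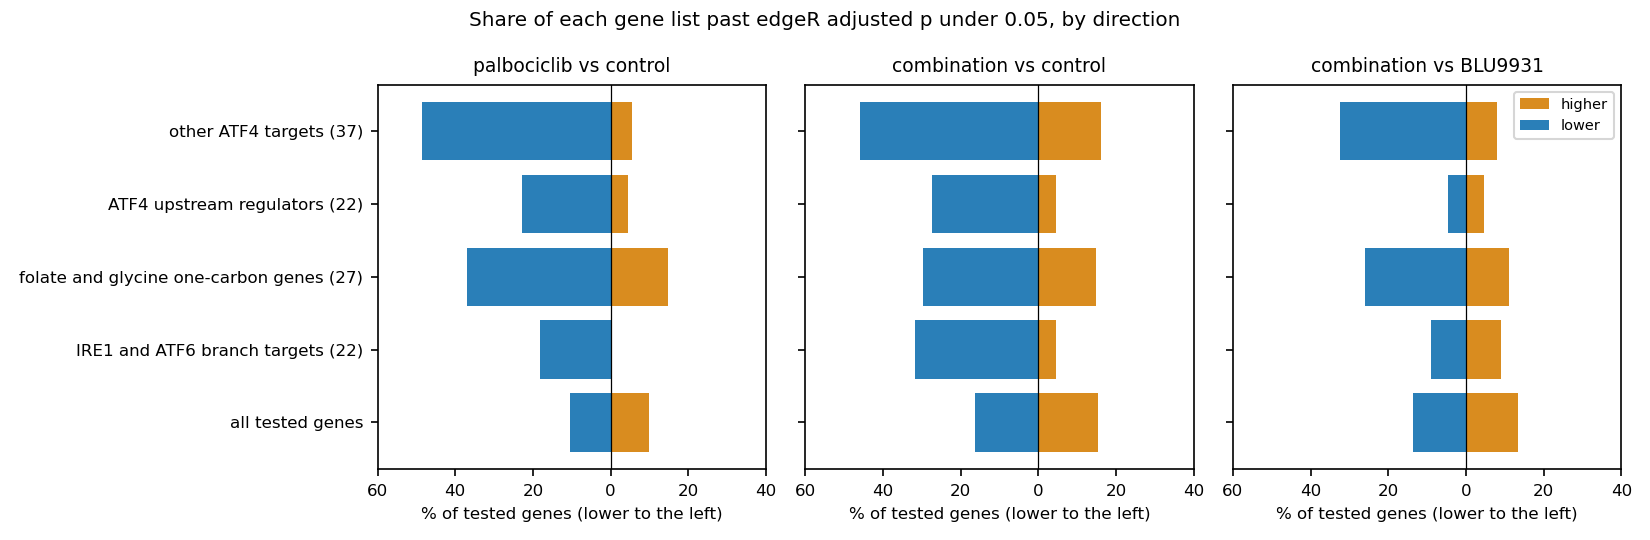
Share of each gene list past edgeR's adjusted p threshold, lower to the left and higher to the right, in 3 comparisons, with the number of genes in brackets and all tested genes as the last row. For ATF4 targets the share that fell was 48.6% under palbociclib and 45.9% in the combination, against 10.5% and 16.3% of all tested genes. The lists were chosen with earlier results of these data known, so the shares are descriptions.

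The genes whose log2 CPM followed each member most closely over the 12 libraries were found by Pearson's r, which here reflects group, depth and GC content together. The closest to PSAT1 were CEBPG (r = 0.991), TCP1 (0.988) and IARS (0.988), and the closest to PHGDH were TRIP10 (0.995), POLE (0.994) and CHAF1A (0.992). For ATF4 they were HSPA1B (0.993), HSPA1A (0.987), which are near-identical copies, and AARS (0.984). The closest to ASNS were SLITRK4 (0.984), ZNF891 (0.981) and TAF5 (0.98), those to SHMT2 were CHCHD2 (0.983), TUBG1 (0.981) and EIF4EBP1 (0.98), and those to MTHFD2 were ATG3 (0.984), OTUD4 (0.97) and CRY1 (0.963). The closest to ATF3 were ARID1A (0.962), TRRAP (0.962) and SLC1A5 (0.958). The genes without a call had lower values, with KMT5A (0.878), CFAP43 (0.877) and NDUFA10 (0.876) for DDIT3, PEX26 (0.901), CDKN2A (0.900) and ZXDC (0.863) for TRIB3, and SCLY (0.863), TMEM268 (0.841) and NUTF2 (0.812) for PSPH. Among the members themselves r was highest between ATF4 and SHMT2 (0.966) and between ASNS and PSAT1 (0.949), was 0.766 between PHGDH and PSAT1, and was lowest between TRIB3 and MTHFD2 (-0.13).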

How the data were processed

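Libraries were made from total RNA with an mRNA kit, per the labels' protocols. StringTie 1.3.3b, HISAT2 2.0, Trimmomatic 0.36 and bedtools 2.26.0 are named, with no roles, per the submitters' processing notes. These also name a mouse build (mm9), although all 58174 genes carry human IDs, 57836 of them in GENCODE 29 (GRCh38), so positions are on GRCh38. The table deposited by the authors gives counts, TPM and FPKM for each gene and library. The counts, named so per the file headers, are whole numbers with no stated counting mode or strand. The TPM values, deposited by the authors, are scaled by length and library. The FPKM values deposited by the authors were not used in tests. The table has 0 columns of other samples.

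The tests used edgeR 4.0.16 (R 4.3.3): filterByExpr, TMM, and a robust quasi-likelihood fit of all 12 libraries (8 residual degrees of freedom) with a term per group, two-sided, with Benjamini-Hochberg adjustment over 20612 genes. DESeq2 1.42.0, limma 3.58.1 on log2(TPM + 1) and log2(TPM + 0.1), library totals, other filters, GC offsets, a replicate block and left-out libraries were alternatives. Code was tested on simulated data. The members and lists were chosen with earlier results of these data known. Members are all named, and of each list genes among the 3 with the smallest adjusted p per comparison, plus 3 genes closest to each member. BTRC under palbociclib was named, and tests of pseudogenes were added, after the values were seen. No list was tested as a set.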

Additional observations from a re-analysis of the deposited data

How the results depend on the processing

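Over 23 other settings, 414 values of calls among the 10 genes were recomputed: 377 stayed called, 37 were lost and 0 reversed, while 35 others were gained. In 74 of 921 values called neither way, the sign differed. With library totals the median change of all genes in the combination against control was 0.11, against 0.03 with TMM, and ATF4 (adjusted p = 0.1) and SHMT2 (0.0556) were lost there. Only the compared groups in the fit left 3 members and 1839 genes called for palbociclib against control, against 6 and 4236, with ATF4 (0.075), SHMT2 (0.12) and MTHFD2 (0.0864) lost, and could not be run for the interaction. With limma on log2(TPM + 1), MTHFD2 was lost under palbociclib (0.0836), ATF4 (0.175) and SHMT2 (0.111) in the combination against control, and ATF4 (0.0693) in the combination against BLU9931. For palbociclib against control, GC offsets gave 7246 genes, and 6733 with the replicate block. Against control, the count of genes for BLU9931 (37) was 590 with DESeq2, 17 with no count filter, 22 with limma on log2(TPM + 1), 2 with no TPM filter, 6 with only the compared groups, 2 with the replicate block, 770 with GC offsets, 357 with these and the block, 553 without control 1 and palbociclib 3, and 1 to 396 without 1 library. For the combination against palbociclib (0 members, 788 genes), GC offsets called 1 and 2516, GC offsets with the block 1 and 1992, both libraries left out 1 and 2043, and 1 library left out 0 to 1 and 438 to 945. DESeq2 gave 1328 genes, limma with no filter 456, only the compared groups 297 and the replicate block 483. For the combination against BLU9931 (5572 genes), GC offsets gave 8429 and leaving out both libraries 8685. For the interaction (0 members, 328 genes), GC offsets called 2 and 1959, GC offsets with the block 1 and 1397, both libraries left out 2 and 2117, and 1 library left out 0 to 1 and 148 to 986. DESeq2 gave 853 genes, limma with no filter 136 and the replicate block 142. Under the replicate block ATF4 (0.0589) and SHMT2 (0.0519) were lost in the combination and SHMT2 (0.0516) under palbociclib. Same-numbered libraries of different groups correlated at -0.364 to 0.168 in their deviations, and differently numbered libraries at -0.277 to 0.464. These include the deviations of control 1 and palbociclib 3 that followed GC content. The correlations therefore cannot show whether equal numbers mark a shared culture or batch. Whether the calls lost under the block are weaker effects was not tested. The cause of these shifts was not tested.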

Other observations

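Rows of pseudogenes named after the 10 genes were read beside them. MTHFD2P1, a processed copy of MTHFD2, gave 2.08, 4.17 and 4.10 CPM in BLU9931, 12.6, 13.8 and 14.9 CPM in palbociclib, 17.5, 13.5 and 14.5 CPM in combination and 5.81, 7.23 and 7.11 CPM in control libraries. Every palbociclib and combination library lay above every control and BLU9931 library, whereas for MTHFD2 they all lay below. The BLU9931 libraries of MTHFD2P1 lay below all control libraries, a difference that did not pass (-0.96 ± 0.23, edgeR adjusted p = 0.135). Mean MTHFD2 was also lower in BLU9931 than in control libraries, with overlap. With edgeR, the log2 change was 1.03 ± 0.23 (adjusted p = 0.00816) under palbociclib and 1.17 ± 0.23 (adjusted p = 0.00234) in the combination, each against control. It was 2.13 ± 0.24 in the combination against BLU9931 (adjusted p = 5.87e-05), and the calls stood when 1 library was left out (adjusted p up to 0.0286). The copies of MTHFD2 together had 0.837% to 8.12% as many counts as MTHFD2. ATF4P4, at 1.37 to 2.51 CPM in palbociclib, 1.42 to 2.08 CPM in combination and 0.45 to 1.08 CPM in control libraries, differed by 1.31 ± 0.34 (adjusted p = 0.0199, up to 0.0895 with 1 library left out) under palbociclib. How reads were divided between a gene and its copies is not given in the sources used here.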
